A study of Homo sapiens with 2 samples.

Results

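The genes described here encode AP-1 proteins and related immediate early transcription factors: the Fos family (FOS, FOSB, FOSL1 and FOSL2), the Jun family (JUN, JUNB and JUND), ATF3, BATF and EGR1. They were chosen by name, with earlier results of these data known, and all 10 were found among the 27685 genes listed, with 22 of the 63714 listed transcripts. RNA was measured in 2 libraries, 1 of H2087 cells and 1 of H596 cells, both established human cell lines labelled as lung adenocarcinoma. Both were cultured without treatment in RPMI medium that held fetal bovine serum, penicillin and streptomycin, so serum was present in both. H2087 is the line used for the RNA-sequencing described in the methods of the study, whose text does not mention H596. With a single library of each line, nothing was replicated and no test between the lines was made.

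AP-1 is a dimer of basic leucine zipper (bZIP) proteins. Jun proteins pair with each other or with Fos proteins, Fos proteins need a Jun partner, and the dimers bind a short palindromic DNA element. FOS, FOSB, JUN, JUNB and EGR1 belong to the immediate early genes, which are switched on within minutes of a growth signal without new protein synthesis and whose mRNAs decay fast. FOSL1 and FOSL2 follow later, and the FOSL1 protein is stabilised by sustained ERK signalling. JUND is present in most resting cells. ATF3 is a stress-induced bZIP factor, BATF is best known in lymphocytes, and EGR1 is a zinc finger factor that is induced beside FOS but is not part of AP-1.

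The cell lines differed in which Fos gene was highest, while JUNB was the highest Jun gene in both. In H2087 the JUNB level was only 1.18 times that of JUN. FOSL1 had the highest FPKM (fragments per kilobase of transcript, scaled to the size of the library) of the 10 genes in H2087, and JUNB had the highest in H596. FOSL1 and JUN were lower in H596. JUNB, FOSL2 and ATF3 were higher there, and EGR1 and JUND were at nearly the same level in both.

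A few sequences show how long the identical runs in the members' coding sequences are and how their promoters differ. Related genes can share reads where their sequences are identical, so the longest identical run was sought between the coding sequences of all 45 pairs of members, in GENCODE release 44 on GRCh37. No pair shared more than 20 bases, and the longest run between genes of different families had 16. Untranslated parts of the transcripts and genes other than the members were not compared. The run shared by JUN and JUNB lies on chromosome 1 from 59248408 to 59248427, on the minus strand, and on chromosome 19 from 12902976 to 12902995. The run shared by FOSL1 and FOSL2 lies on chromosome 11 from 65661534 to 65661549, on the minus strand, and on chromosome 2 from 28631669 to 28631684. In both of these pairs the genes had opposite differences below. The shared bases are in capitals:
JUN and JUNB: GAGCAGGAGGGCTTCGCCGA
FOSL1 and FOSL2: GGAACAAGCTGGCTGC

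RefSeq promoter windows (GRCh38.p14; 250 bases before to 50 after a start site) were found for 9 of the 10 genes, with 10 windows in all, 2 of them for ATF3. FOSL1 had no entry. Each window matched GRCh37 exactly at 1 place. The start site of every window but 1 of ATF3 lay within 66 bases of the start of a deposited transcript. That ATF3 start site lay 73 bases downstream of the nearest deposited start. The motifs below were searched on both strands, with positions counted from the start site. The TATA box, TATAAA or TATATA, was in 13.7% of all 34943 windows and in those of FOS, FOSB, JUNB and ATF3. The ATF3 windows lie at other starts than 212781970 (hg19), where the transcripts that held most of its FPKM begin, so they do not show the promoter of those transcripts. In FOS the TATA box lay at -33 to -28, in FOSB at -30 to -25 and in JUNB at -31 to -26. The ATF3 matches lay elsewhere, at -230 to -225 and, after the start, at 24 to 29. The CArG box, bound by serum response factor, was in 453 of the windows. The EGR1 window held 2 such boxes, at -105 to -96 and -83 to -74. Elements more than 250 bases before a start site, in FOS or any other member, were outside the search. The cAMP response element TGACGTCA was in 1.84% of windows and in that of JUND, at -200 to -193. The AP-1 element TGACTCA was in 4.96% of windows and only in that of FOSL2 among the members, at 4 to 10, after the RefSeq start. That start, 28615725 in GRCh37, lies before the deposited FOSL2 start at 28615779, so the element lies upstream of the deposited transcript. The EGR element GCGGGGGCG was in 5.06% and in no member's window. The matches are descriptions of these letters and not binding sites. The windows below are those of JUNB, at least 2-fold higher in H596, JUN, at least 2-fold lower, and FOS, EGR1 and JUND, under 2-fold. Capitals mark the motifs, of which the JUN window holds none, and each sequence starts 250 bases before the start site and stops at it, except FOS, JUN and JUND, which stop 20, 36 and 4 bases short of it:
JUNB, chr19:12791236-12791485, plus strand: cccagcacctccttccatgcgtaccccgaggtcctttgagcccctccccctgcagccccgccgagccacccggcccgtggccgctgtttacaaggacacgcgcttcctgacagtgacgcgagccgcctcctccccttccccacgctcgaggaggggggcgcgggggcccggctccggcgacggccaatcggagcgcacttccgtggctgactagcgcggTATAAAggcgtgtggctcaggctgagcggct
FOS, chr14:75278578-75278807, plus strand: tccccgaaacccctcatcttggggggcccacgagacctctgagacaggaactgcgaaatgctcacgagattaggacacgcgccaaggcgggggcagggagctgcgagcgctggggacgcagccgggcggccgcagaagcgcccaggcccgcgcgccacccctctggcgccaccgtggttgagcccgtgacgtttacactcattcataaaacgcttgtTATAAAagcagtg
JUN, chr1:58784084-58784297, minus strand: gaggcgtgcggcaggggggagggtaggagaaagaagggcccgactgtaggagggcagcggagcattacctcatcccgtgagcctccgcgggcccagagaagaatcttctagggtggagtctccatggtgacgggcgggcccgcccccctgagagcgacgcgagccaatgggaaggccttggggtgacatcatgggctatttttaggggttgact
EGR1, chr5:138465229-138465478, plus strand: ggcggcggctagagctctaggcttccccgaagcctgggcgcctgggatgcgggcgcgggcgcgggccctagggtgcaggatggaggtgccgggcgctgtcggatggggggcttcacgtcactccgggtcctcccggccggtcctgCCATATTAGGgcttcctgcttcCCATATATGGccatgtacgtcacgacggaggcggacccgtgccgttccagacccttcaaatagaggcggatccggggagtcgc
JUND, chr19:18281627-18281872, minus strand: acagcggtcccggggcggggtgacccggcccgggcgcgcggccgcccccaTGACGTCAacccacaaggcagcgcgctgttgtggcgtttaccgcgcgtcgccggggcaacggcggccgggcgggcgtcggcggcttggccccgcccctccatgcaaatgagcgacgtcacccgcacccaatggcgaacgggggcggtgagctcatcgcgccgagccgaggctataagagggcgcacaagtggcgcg

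The total estimated counts were 46961500 in H2087 and 55387847 in H596, a ratio of 1.18. Intervals below are 95% intervals of counting error only, and would be too narrow if both mates of a read pair had been counted, which is not stated. Differences are H596 minus H2087 on the scale of log2(FPKM + 1), which understates the change of low genes. Genes entered a comparison where their FPKM averaged 1 or more over the libraries. The median difference of these 13048 genes was 0.12, and it was 0.00 with TMM scaling. Of these genes, 18.2% were at least 2-fold higher in H596 and 14.2% at least 2-fold lower. The label of H596 was not borne out by all its markers. NKX2-1, the lung lineage factor that marks adenocarcinoma, was at 110.0 FPKM in H2087 but at 0.508 in H596, and NAPSA at 21.9 and 0.0645. The squamous markers TP63 and KRT5 had 0.183 and 0 in H2087, and 55.2 and 106 in H596. KRT7, an epithelial keratin, was high in both, at 791 and 608. Of the 6 squamous markers, 5 were compared and 4 were at least 2-fold higher in H596, and their summed FPKM was 40.8 in H2087 and 307 in H596, with SOX2 at 39.1 and 56.5. Of the 6 adenocarcinoma markers, 4 were compared and 3 were at least 2-fold lower.

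Of the 10 genes, 8 reached that mean level and were compared in this way. FOSB and BATF, with mean FPKM of 0.890 and 0.278, were below it and are given by their values only. FOSL2, JUNB and ATF3 were at least 2-fold higher in H596, 3 of 8 against 18.2% of all genes compared. FOSL1 and JUN were at least 2-fold lower, 2 of 8 against 14.2%. FOS, JUND and EGR1 differed by less than 2-fold on this scale.

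**Figure D1:**
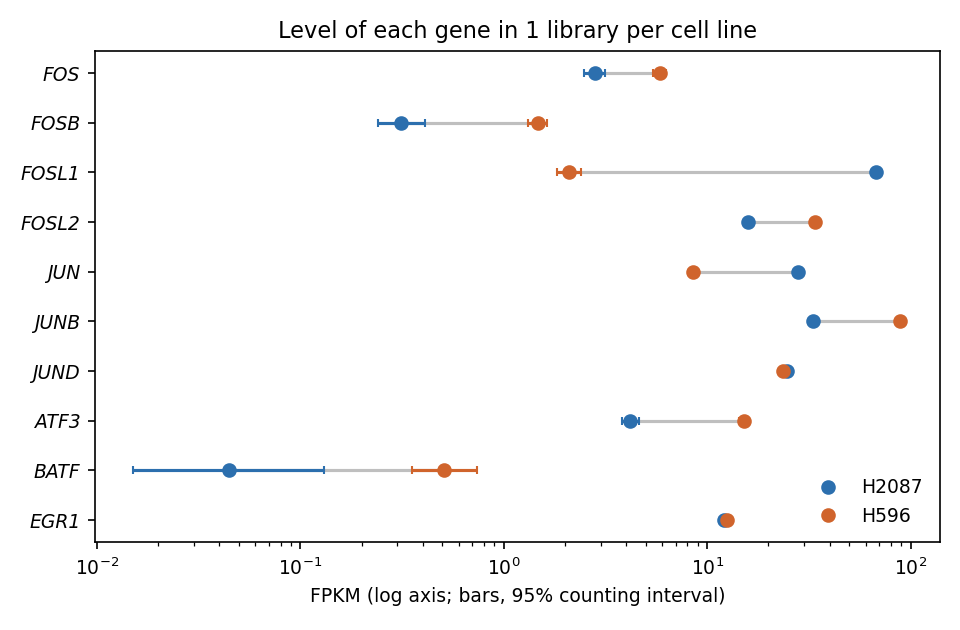
FPKM of the 10 genes (log axis) in the H2087 library (blue) and the H596 library (orange), with 95% counting intervals as bars. FOSL1 spans the widest gap of the 10, from 67.6 in H2087 to 2.09 in H596, while the points of the 2 libraries almost coincide for EGR1 and for JUND.

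FOSL1 (gene 8061; FRA-1, a Fos protein without a strong activation domain) is on the minus strand of chromosome 11 (hg19), between 65659607 and 65667997. It had 67.6 FPKM in H2087 (interval, 65.9 to 69.4; 5603 counts) and 2.09 in H596 (1.82 to 2.40; 200 counts). H2087 was thus far above H596. The difference was -4.47, and the ratio of count shares, H2087 over H596, was 33.0 (exact interval, 28.7 to 38.2). Its rank among all listed genes was 1097 in H2087 and 11377 in H596. It had the 65th lowest difference among the genes compared.

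All 6 listed FOSL1 transcripts were lower in H596. NM_005438 held most of the FPKM in both lines, with 51.1 in H2087 and 1.17 in H596, or 75.6% and 55.9% of the gene's value. NM_001300855, at 7.13 FPKM in H2087, had 0 counts in H596. The 6 transcripts share 1 start and 1 end, and their lengths differ by up to 348 bases, so the division of reads between them is an estimate. The gene's value rests on their sum.

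FOSL2 (gene 2355; FRA-2, the nearest relative of FOSL1) lies on the plus strand of chromosome 2 from 28615779 to 28637516. Its FPKM was 15.8 in H2087 (15.3 to 16.4) and 34.0 in H596 (33.2 to 34.7), the reverse order of FOSL1. The difference was 1.06, and the ratio of count shares, H596 over H2087, was 2.16 (2.07 to 2.25). Its place at or above 2-fold depended on the scaling, since the difference was 0.93 with TMM scaling and 0.94 after centring on the median. FOSL2 was the only member whose position overlapped another listed gene, FLJ31356, by 1761 bases. FLJ31356 had 30 counts in H2087 and 187 in H596, which equal 0.991% and 2.43% of the FOSL2 counts. A gene with the same start, named FOSL2-AS1, is on the minus strand in GENCODE, and whether strand was used in counting is not stated, so reads from the overlap cannot be told apart.

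FOS (gene 2353), the founding member of the family, lies on the plus strand of chromosome 14 from 75745481 to 75748937. Its FPKM was 2.80 in H2087 (2.49 to 3.14) and 5.83 in H596 (5.42 to 6.27). Both levels were low for a gene compared here: 20.6% of the 13048 genes lay below FOS in H2087 and 32.6% in H596. The difference was 0.85, under the 2-fold level, while the ratio of count shares was 2.09 (1.82 to 2.40). FOS reached the 2-fold level with a pseudocount of 0.1 (1.03) and with TPM (1.12).

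FOSB (gene 2354) lies on the plus strand of chromosome 19 from 45971253 to 45978437. Its FPKM was 0.314 in H2087 (0.242 to 0.408; 56 counts) and 1.47 in H596 (1.31 to 1.64; 314 counts). The intervals did not overlap, and H596 was higher, with a ratio of count shares of 4.75 (3.57 to 6.44). Its 2 listed transcripts differ by 108 bases. The shorter, NM_001114171, held 48 of the 56 counts in H2087, and the longer, NM_006732, held 285 in H596 against 29 for the shorter. The proportions of the 2 transcripts were thus opposite in the libraries, on few counts.

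Within the Fos family, the main gene changed place. FOSL1 made up 78.1% of the family's summed FPKM in H2087 and 4.83% in H596, and FOSL2 made up 18.3% and 78.4%. The family's sum was 86.6 FPKM in H2087 and 43.4 in H596. FOS had 3.23% of the sum in H2087 and 13.4% in H596, and FOSB had 0.363% and 3.38%.

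**Figure D2:**
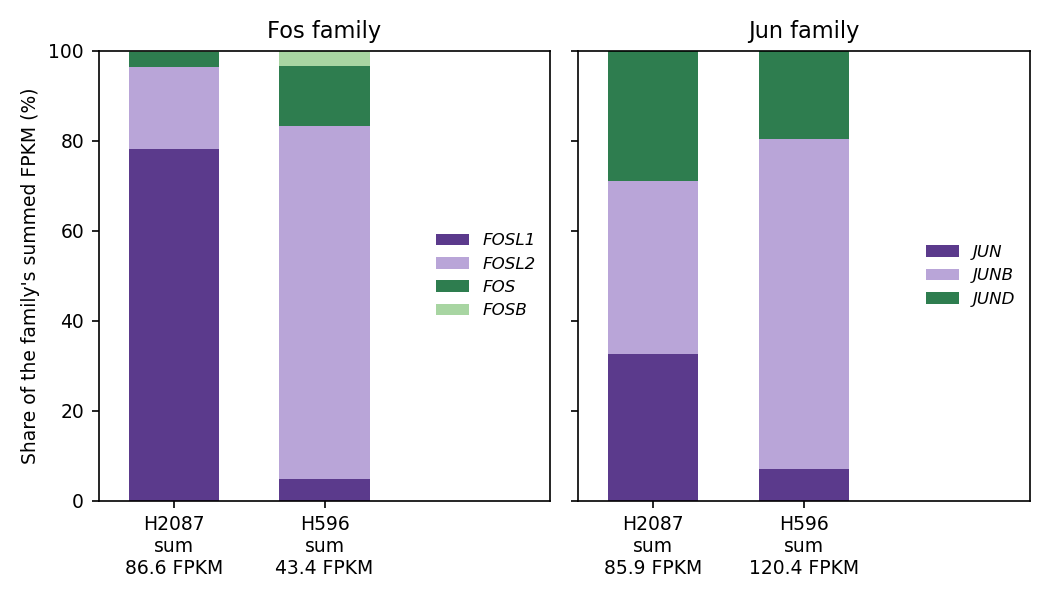
Share of each gene in the summed FPKM of the Fos family (left) and the Jun family (right), in percent, 1 bar per library. FOSL1 fills 78.1% of the Fos bar in H2087 and FOSL2 fills 78.4% of it in H596, while JUNB fills 38.4% of the Jun bar in H2087 and 73.2% in H596.

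JUN (gene 3725; c-Jun, the strongest activator among the Jun proteins) lies on the minus strand of chromosome 1 from 59246463 to 59249785. Its FPKM was 28.1 in H2087 (27.3 to 28.9; 4474 counts) and 8.53 in H596 (8.12 to 8.96; 1609 counts). JUN was higher in H2087, as FOSL1 was. The difference was -1.61, and the ratio of count shares, H2087 over H596, was 3.28 (3.10 to 3.47).

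JUNB (gene 3726), which often opposes JUN on shared targets, lies on the plus strand of chromosome 19 from 12902310 to 12904125. Its FPKM was 33.0 in H2087 (31.8 to 34.3; 2875 counts) and 88.2 in H596 (86.4 to 90.0; 9086 counts). The difference was 1.39, and the ratio of count shares, H596 over H2087, was 2.68 (2.57 to 2.80). Its rank among all listed genes was 2363 in H2087 and 747 in H596, so it was well expressed in both lines. The FPKM of JUNB was 1.18 times that of JUN in H2087 and 10.3 times in H596.

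JUND (gene 3727) lies on the minus strand of chromosome 19 from 18390504 to 18392466. Its FPKM was 24.8 in H2087 (23.8 to 25.8) and 23.7 in H596 (22.8 to 24.6), and these intervals overlapped. The difference was -0.06, and the ratio of count shares, H596 over H2087, was 0.958 (0.906 to 1.01). Its sign changed with the scaling, to 0.11 with TPM. The 2 listed JUND transcripts have the same position and the same length of 1963 bases. NM_005354 held 98.9% of the gene's FPKM in H2087 and 51.3% in H596. Since both span the whole gene without an intron, their split is not a measured difference, and only the gene's value was used. JUN and JUNB are likewise as long as their span, so reads of these 3 genes do not show whether they come from processed mRNA.

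The Jun family summed to 85.9 FPKM in H2087, where its 3 genes had similar shares: JUNB 38.4%, JUN 32.7% and JUND 28.9%. In H596 the sum was 120.4 FPKM, and the shares were 73.2% for JUNB, 7.09% for JUN and 19.7% for JUND. The Jun sum was 0.992 times the Fos sum in H2087 and 2.78 times in H596. The proteins were not measured.

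ATF3 (gene 467) lies on the plus strand of chromosome 1 from 212738676 to 212794119. Its FPKM was 4.18 in H2087 (3.80 to 4.61; 418 counts) and 15.1 in H596 (14.4 to 15.8; 1763 counts). The difference was 1.63, and the ratio of count shares, H596 over H2087, was 3.58 (3.21 to 3.99). By its highest transcript alone the difference was 0.86, since the estimated level of ATF3 was divided over more transcripts in H596.

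NM_001674 held 87.9% of the ATF3 FPKM in H2087 and 49.6% in H596. NM_001206488 had an FPKM of 0.449 and 4.08, and NM_001206484 had 0 counts in H2087 and 3.35 FPKM in H596. These 3 transcripts and NM_001040619 begin at 212781970. They also share 1 end, so the division of reads between them is an estimate. The transcript from the distal start at 212738676, NM_001030287, had 0 counts in both libraries.

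BATF (gene 10538), an AP-1 factor that pairs with Jun proteins and lacks an activation domain, lies on the plus strand of chromosome 14 from 75988784 to 76013334. It had 3 counts in H2087, an FPKM of 0.0444 (0.0151 to 0.131), and 28 counts in H596, an FPKM of 0.511 (0.354 to 0.739). The ratio of count shares, H596 over H2087, was 7.91, with a wide interval from 2.44 to 40.7. The leukocyte markers PTPRC, CD3E and CD4 had 0 counts in both libraries, as had 4 of the 6 listed leukocyte markers in each. CD68, which is also expressed outside leukocytes, made up nearly all of their summed FPKM, with 128 in H2087 and 25.6 in H596.

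EGR1 (gene 1958) lies on the plus strand of chromosome 5 from 137801181 to 137805004. Its FPKM was 12.1 in H2087 (11.5 to 12.6; 1815 counts) and 12.5 in H596 (12.0 to 13.0; 2221 counts). These intervals overlapped. The difference was 0.04, and the ratio of count shares was 1.04 (0.975 to 1.10). Its sign changed with the scaling, to -0.08 with TMM factors.

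**Figure D3:**
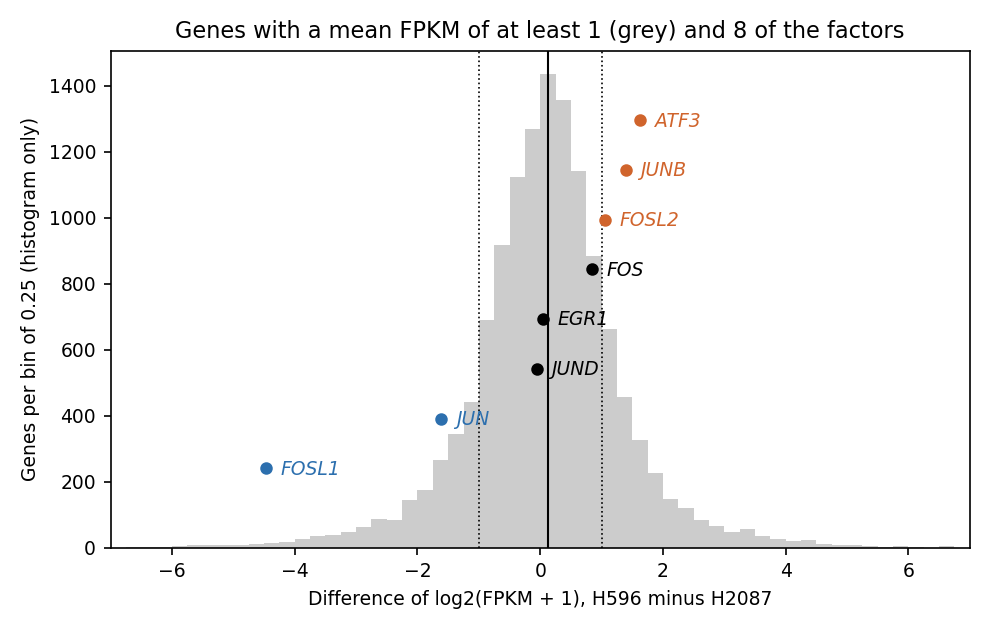
Grey histogram, differences of log2(FPKM + 1), H596 minus H2087, of the 13048 genes compared (11 lie beyond the axis); points, the 8 factors among them at arbitrary heights. The solid line is the median of 0.12 and the dotted lines mark 2-fold. FOSL1 at -4.47 and JUN at -1.61 lie to the left, and FOSL2, JUNB and ATF3 lie between 1.06 and 1.63.

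In order of FPKM, H2087 had FOSL1, JUNB, JUN, JUND, FOSL2, EGR1, ATF3, FOS, FOSB and BATF. In H596 the order was JUNB, FOSL2, JUND, ATF3, EGR1, JUN, FOS, FOSL1, FOSB and BATF. The counting intervals of neighbours in these orders did not overlap in either library. They cover neither the spread between cultures nor the error of transcript lengths.

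**Figure D4:**
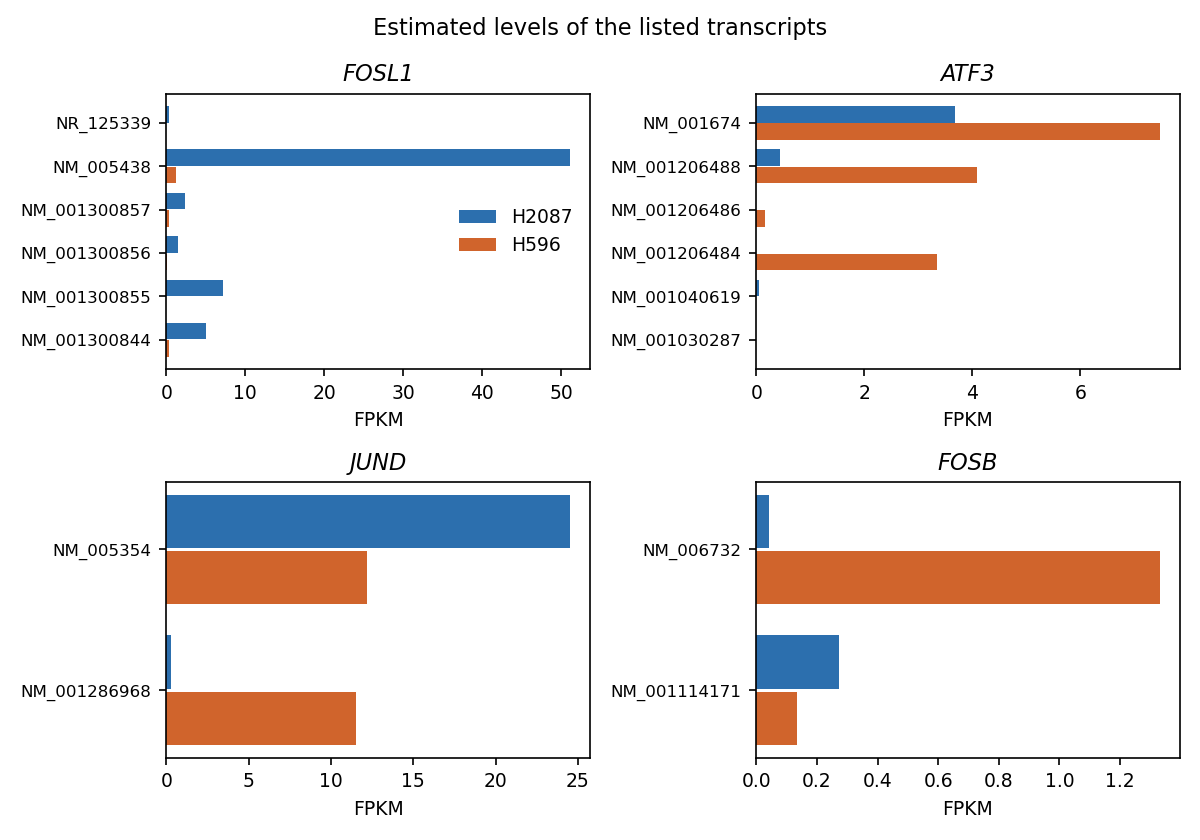
FPKM (linear axes of different range) of each listed transcript of the 4 members with several, in H2087 (blue) and H596 (orange). FOSL1 is dominated by NM_005438 at 51.1 in H2087, and the estimated ATF3 level in H596 is divided over NM_001674, NM_001206488 and NM_001206484. The 2 JUND transcripts cannot be told apart by position or length.

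Other bZIP proteins that pair with Fos and Jun proteins differed by at least 2-fold in shares near those of all genes, 18.2% higher and 14.2% lower. Of 17 listed, 12 were compared, of which 2 were at least 2-fold higher in H596 and 2 lower, with a median difference of -0.30 against 0.12 for all genes. JDP2, a repressor that binds AP-1 sites as a Jun partner, was at 7.60 FPKM in H2087 and 2.63 times as high in H596. NFE2L1 was at 31.8 and 67.2. BATF3, the nearest relative of BATF, had 4.59 in H2087 and 0.0898 in H596. BATF itself was higher in H596, but on few counts and below the level for comparison. MAFF, a small Maf protein, had 8.19 and 3.06. ATF4 was the highest of the list in both, at 310.4 and 225.

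Other immediate early genes likewise differed by at least 2-fold in shares near the 18.2% higher and 14.2% lower of all genes. Of 26 listed, 20 were compared, of which 4 were at least 2-fold higher and 3 lower, and the median difference was 0.43. SGK1, a serum-induced kinase, was at 3.44 FPKM in H2087 and at 46.9 in H596. The nuclear receptor NR4A2 had 0.581 and 8.33, and the antiproliferative gene BTG2 had 2.74 and 13.4. MYC, the highest of the list by its mean, had 225 and 39.5. CYR61, a matricellular protein, had 61.4 and 17.2. NR4A1, a relative of NR4A2 that is induced by the same signals, had 5.93 and 1.27, opposite to NR4A2.

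The kinases and factors upstream of the members had genes at least 2-fold apart in both directions. Of 27 genes, 26 were compared, 2 were at least 2-fold higher, 2 were lower, and 22 lay within 2-fold, with a median difference of 0.26. Of all genes compared, 18.2% were at least 2-fold higher and 14.2% lower. RPS6KA5 (MSK1, a histone kinase that acts on immediate early genes) was at 1.84 FPKM in H2087 and at 8.18 in H596. MKL1, a coactivator of serum response factor, had 3.98 and 9.02, a difference of 1.01. ELK3, a ternary complex factor, had 26.8 and 5.90, and the p38 kinase MAPK12 had 19.9 and 5.14. MAP2K2, one of the kinases that activate ERK, was the highest of the list, at 60.4 and 79.4.

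Among 10 inhibitors and turnover factors, 0 were at least 2-fold higher in H596, 2 were lower, and the median difference was -0.11, beside 18.2% higher and 14.2% lower among all genes. The ERK phosphatases DUSP6 and DUSP5, which are themselves induced by ERK signalling, were the ones lower. DUSP6 was at 71.2 FPKM in H2087 and at 0.865 in H596, and DUSP5 at 80.7 and 5.43. Their differences were -5.27 and -3.67, of the same sign as that of FOSL1, while those of FOS and EGR1 were 0.85 and 0.04. DUSP4, also a phosphatase in the list, differed by -0.63, under 2-fold. ERK signalling was not measured, and its part in these values was not tested.

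Of 15 textbook AP-1 target genes, 10 were compared, 1 was at least 2-fold higher in H596 and 4 were lower, with a median difference of -0.71 against 0.12. Among all genes compared, 18.2% were higher and 14.2% lower. The chemokine CXCL8 was at 145 FPKM in H2087 and at 3.76 in H596, and the collagenase MMP13 had 15.4 and 0.184. The urokinase receptor PLAUR had 12.5 and 2.75, and urokinase itself, PLAU, the highest of the list, had 318 and 130. IVL, which encodes involucrin of the squamous cell envelope, was the only gene higher, with 1.83 and 18.1. IVL moved with the squamous markers given above, whose part in the result was not tested.

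**Figure D5:**
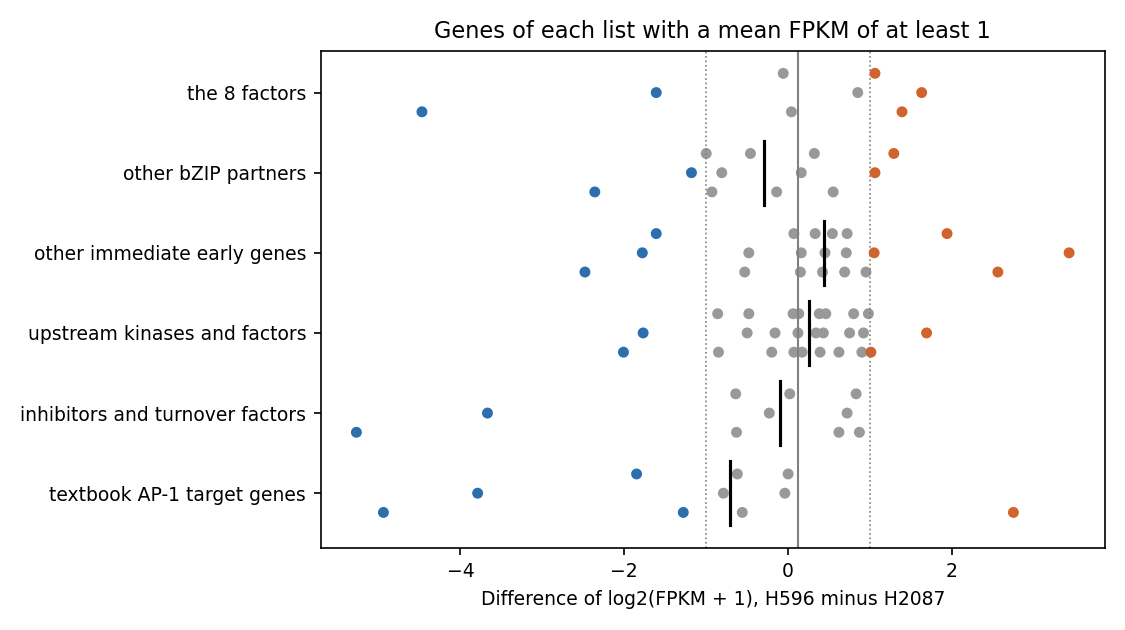
Differences of log2(FPKM + 1), H596 minus H2087, of the 8 factors and of the genes compared in 5 related lists. Orange and blue mark genes at least 2-fold higher or lower in H596, and short black lines the median of each related list. Among the inhibitors the 2 blue points, DUSP6 at -5.27 and DUSP5 at -3.67, stand apart, and among the AP-1 targets 4 of 10 points are blue.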

How the data were processed

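One library of H2087 cells and one of H596 cells were used. The authors prepared libraries with a stranded mRNA kit. Per the labels, the submitters' processing notes name Trimmomatic, HISAT2 2.0.5, StringTie 1.3.3b and hg19. The deposited FPKM values are relative to transcript length and library size. The authors also deposited estimated counts, which are whole numbers and were taken as rounded. How they were made and whether strand was used are not stated. The totals, 46961500 and 55387847, set the precision.

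From these, 95% Wilson intervals of count shares were carried to FPKM, and exact binomial intervals of the split of counts gave ratios (scipy 1.17.1). Differences of log2(FPKM + 1) were taken with a pseudocount of 1 over genes whose mean FPKM was 1 or more. No test was made with 1 library per line. TMM factors came from edgeR 4.0.16 in R 4.3.3. The 2-fold calls and intervals were tried on simulated counts that varied by counting error only. Of genes with a 4-fold change, 190 of 192 were called, and of those without one, 2 of 12602. These rates do not cover the spread between cultures or libraries, which the simulation left out. Promoters are from RefSeq (GRCh38.p14), coding sequences and strands from GENCODE 44 on GRCh37. The genes named are all members and, from each list, up to 3 with the largest difference in each direction and the highest. DUSP4 was named beside DUSP5 and DUSP6. Members and lists were chosen with earlier results of these data known.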

Additional observations from a re-analysis of the deposited data

How the results depend on the processing

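The number of members at least 2-fold higher in H596, 3, lay between 2 and 4 under the 7 alternatives (a pseudocount of 0.1, TPM, TMM scaling, centring on the median, the highest single transcript, a mean FPKM of at least 10, and no filter). The share of all genes higher ranged from 9.19% with no filter to 24.6% with TPM. JUNB was at or above 2-fold under all 7. FOSL2 was not with TMM scaling or centring, and ATF3 was not by its highest transcript (0.86) and was not compared at a mean FPKM of at least 10. FOSL1 and JUN were the 2 members at least 2-fold lower under all 7, with differences from -4.95 to -4.47 and from -1.73 to -1.49. The difference of JUND ranged from -0.96, by the highest of its inseparable transcripts, to 0.11. No paired analysis was possible because the lines have a single library each, and none could be left out. Depth limits BATF, with 3 counts in H2087, and the FOSB transcripts.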

Other observations

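Differences of the genes around each member are given beside the median of all genes compared, 0.12. Over the 20 compared genes on each side of FOSL1, the median difference was -0.37, with 27 of 40 lower in H596, and 1 of the 40 differed as far towards H2087 as FOSL1. The 40 genes around JUN had a median of 0.45, opposite in sign to JUN itself, and 2 of them were as low as JUN. Around FOSL2 the median was -0.52, and 4 of 40 were as high as FOSL2. Around JUNB it was 0.31, and 2 of 40 were as high. Around EGR1 the median was -0.66, and 33 of 40 were lower in H596, while EGR1 differed by 0.04. Around FOSB, which was itself below the level for comparison, the median was 0.86, with 35 of 40 higher. Around ATF3 it was 0.41, with 25 of 40 higher and 7 as high as ATF3. Around FOS and around BATF it was 0.20, and around JUND -0.02, with 20 of 40 lower and 20 higher. DNA copy number was not analysed here, and its part in these values was not tested.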
